A study of Mus musculus with 8 samples.

Results

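Cytochrome P450 enzymes of families 1 to 4 were compared between crypts of the small intestine (SI) and the colon (COL) of wild-type mice. The members were all protein-coding genes present in both count tables whose mouse symbol is Cyp, a digit from 1 to 4, a letter and a number. This rule, which uses gene names and no measured value, gave 75 of the 45706 genes in the tables. The libraries came from freshly isolated crypts of 4 wild-type C57BL/6N donor mice, each of which gave 1 SI and 1 COL library, and no transgene, Cre or treatment is named for them. The tissue had been loosened by EDTA chelation, total RNA was sequenced on an Illumina HiSeq4000 with paired-end reads, and reads per gene were counted by the authors. Libraries SI1 and COL1, SI2 and COL2, and SI3 and COL3 came from mice 1, 2 and 3, and SI4 and COL4 from the mouse numbered 5. The animals' ages are not given in the sources used here.

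P450s are heme enzymes of the endoplasmic reticulum that insert an oxygen atom into their substrates, using electrons passed on from NADPH by P450 oxidoreductase and, for some reactions, cytochrome b5. Members of families 1 to 3 oxidise drugs, plant compounds and other foreign molecules, and many also act on steroids, bile acids or arachidonic acid, whereas family 4 enzymes mainly hydroxylate the end of fatty acid chains. In the gut they are best known from absorptive enterocytes, where they act on swallowed compounds before these reach the liver. Several are switched on by ligand-activated receptors such as AhR, CAR, PXR and PPAR alpha.

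The libraries held 15969428 (COL2) to 32908060 (COL4) counts. The share of counts on mitochondrial genes was between 4.83% and 7.35% in SI1, SI4, COL3 and COL4 and between 22.7% and 50.8% in SI2, SI3, COL1 and COL2. All 8 villus enterocyte markers were called higher in SI (summed level 49785 to 121769 counts per 1000000 counts (CPM) in SI and 19 to 154 CPM in COL), so RNA of differentiated enterocytes was present in the SI crypt libraries. The crypt markers Lyz1 (61.3 to 700 CPM) and Olfm4 (9.74 to 254 CPM) were present in SI as well, both lowest in SI1, and 3 of 4 colonocyte markers were called higher in COL. Of the 6 Paneth markers, Lyz1 among them, 5 were called higher in SI and 1 did not pass. Of the 4 crypt base stem markers only Olfm4 was called higher in SI and 3 did not pass, with a median log2 fold change of -0.52. The 6 hepatocyte markers summed to 2.5 to 4.2 CPM in SI and 7.1 to 22 CPM in COL, and the 6 pancreatic acinar markers to 9.2 to 17.7 CPM in SI and 79.4 to 209 CPM in COL. Most of the COL sums came from Ttr and Cela1, the 1 gene of each list called higher in COL, while Alb reached 1.57 CPM, Serpina1a and Ahsg were at 0 and Cpa1, Ctrb1, Cel and Pnlip averaged below 0.2 CPM in each tissue. The part of these tissues in the results was not tested. The sex labels were contradicted by the data in all 8 libraries: Xist had 0 to 13 counts in the 4 libraries labelled female and 1778 to 7694 in the 4 labelled male, and the Y-linked genes Kdm5d, Eif2s3y, Uty and Ddx3y together had 2721 to 4285 counts in those labelled female and 0 to 11 in those labelled male.

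Of the 75 members, 38 had enough counts to be tested and 37 did not. A gene was called different when its adjusted p in edgeR's quasi-likelihood test over all 14491 genes tested was below 0.05. Of the 38 tested members, 20 were called higher in SI, 9 were called higher in COL and 9 did not pass. Among all genes tested 28.4% were called, 15.5% higher in SI and 12.9% higher in COL. Members nearly absent from a tissue, most of those called higher in COL among them, passed the count filter through the other tissue. Their direction was therefore largely set by the filter. With at least 10 counts required in every library, 16 members were tested, 12 called higher in SI and 1 higher in COL. The shares of all genes called in that fit are not given here. All 29 called members moved the same way in 4 of 4 mice, which is no separate support, because they were called from these same libraries. The CPM ranges of the 2 tissues did not overlap for 26 members, against 33.5% of all genes tested (17.8% with SI higher and 15.7% with COL higher). The median log2 fold change of SI over COL was 1.99 over the tested members and -0.09 over all genes tested, on TMM-scaled values. Scaling by library size alone shifted the median of all genes to -0.82 and turned the direction of Cyp4f18 and Cyp4f40, neither of which passed. In bulk RNA, more cells of a type and more RNA per cell cannot be told apart.

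**Figure D1:**
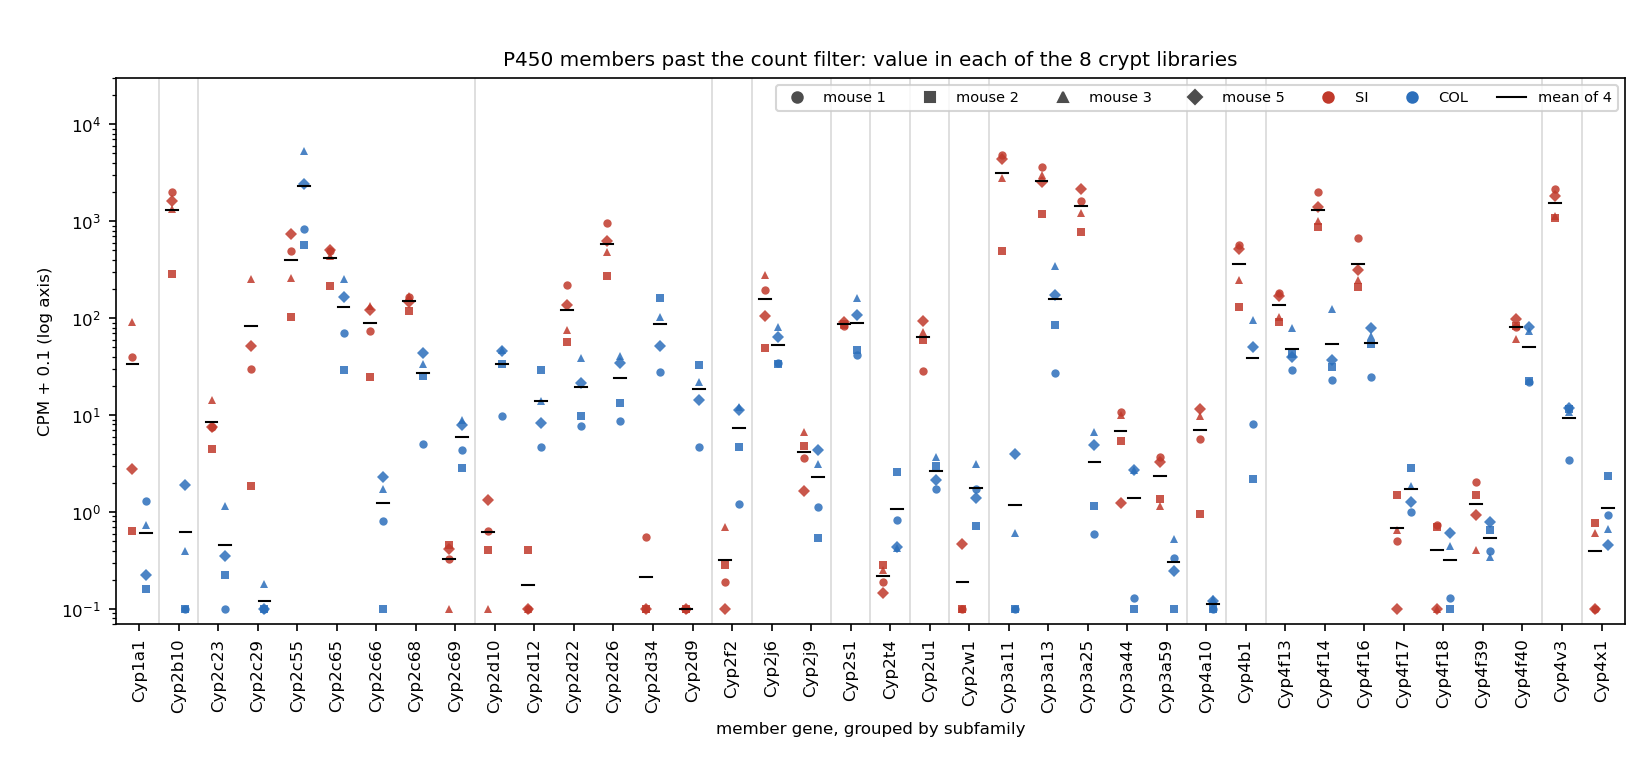
Level of each of the 38 tested members in every library (CPM plus 0.1, log axis), grouped by subfamily, with SI in red, COL in blue, a symbol for each mouse and a bar at the mean of 4. The members with the highest SI levels, in the Cyp2b, Cyp3a, Cyp4f and Cyp4v subfamilies, have SI points far above their COL points, while Cyp2c55 has the highest COL points and Cyp2d9, Cyp2d10, Cyp2d12 and Cyp2d34 have SI points at or near 0.

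The summed level of all members was 20620, 6196, 13560 and 17634 CPM in SI1 to SI4, a mean of 14502 ± 6248 CPM (SD, n = 4). In COL1 to COL4 it was 1189, 1255, 6963 and 3507 CPM, a mean of 3228 ± 2713 CPM (SD, n = 4). The lowest SI sum, in SI2, was below the highest COL sum, in COL3, so the totals overlapped although SI was above COL within each of the 4 mice. To compare levels between genes, CPM was divided by the length in kilobases (kb) of the longest protein-coding transcript. On this scale the members with the largest share of the SI pool were Cyp3a11 with 19.2% ± 7.46 (SD, n = 4), Cyp3a13 with 14.6% ± 2.71, Cyp3a25 with 12.2% ± 2.81, Cyp4f14 with 10.4% ± 3.36 and Cyp2b10 with 10.2% ± 2.94. The COL pool was led by 1 gene, Cyp2c55, with 66.7% ± 14.3 (SD, n = 4). The next members in COL by mean share were Cyp2d34 with 5.59% ± 6.83, Cyp2c65 with 4.42% ± 1.62 and Cyp3a13 with 3.26% ± 1.25, whose spreads overlapped. The place of Cyp2d34 rested on COL2, where it held 15.8% against 2.9%, 1.84% and 1.82% in COL1, COL3 and COL4, and without COL2 its mean share was 2.19%, below Cyp2c65 (5.07%) and Cyp3a13 (2.82%). The first place in SI depended on the length used. With the union of all annotated exons, which for Cyp3a11 is 5093 bases against 2344 in the transcript, Cyp3a13 was first and Cyp3a11 was 4th.

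**Figure D2:**
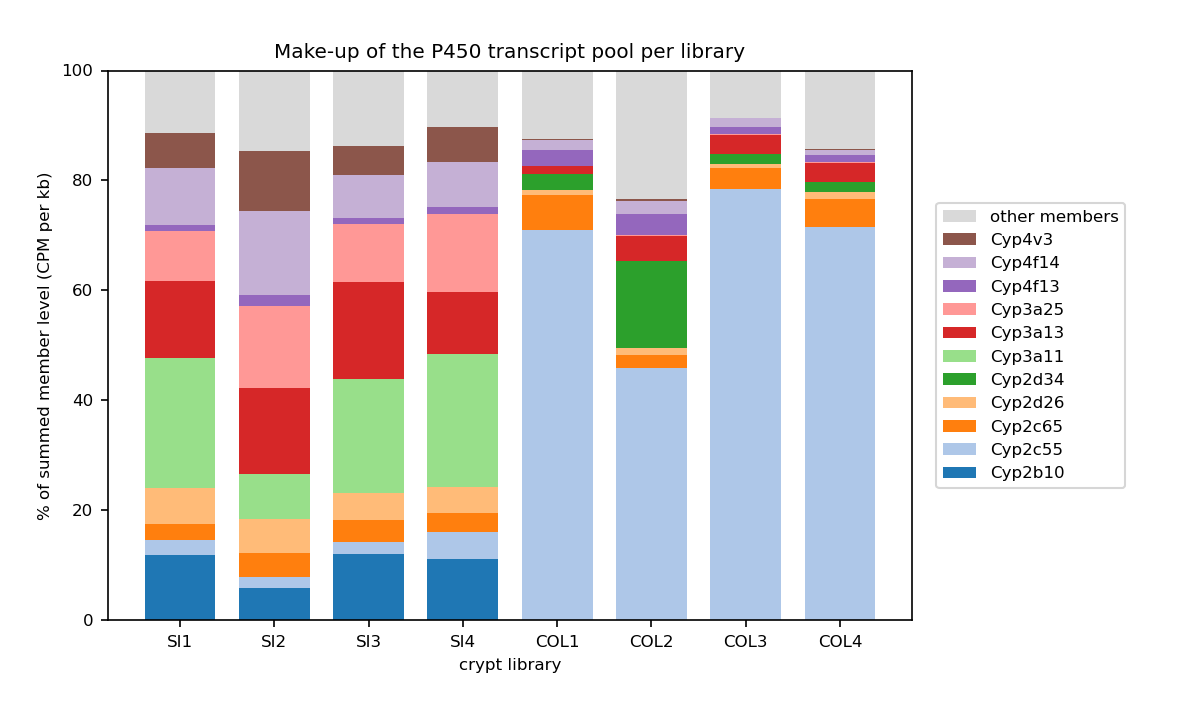
Share of each member in the summed member level per library (CPM per kb of longest coding transcript, in percent), for the 11 members with the highest share in any library and all others together. Cyp2c55 fills 45.9% to 78.4% of the 4 COL bars, and the SI bars are split among Cyp3a, Cyp4f14, Cyp2b10, Cyp4v3 and Cyp2d26.

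Cyp1a1, which oxidises polycyclic aromatic compounds and is the classical target of the aryl hydrocarbon receptor AhR, was called higher in SI and had a wide spread among the mice, with a highest SI library 167-fold above the lowest. It lies on chromosome 9 (57687928 to 57703824, plus strand, GRCm38). Its promoter is shown because it holds the core motif to which AhR binds with its partner ARNT. The 100 bases before the RefSeq start (GRCm38.p6, chr9:57697513-57697612, plus strand) are given 5′ to 3′ with the core GCGTG in capitals.
Cyp1a1: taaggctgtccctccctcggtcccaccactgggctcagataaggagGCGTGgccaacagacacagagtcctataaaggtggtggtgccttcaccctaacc
The core lies at positions -54 to -50 relative to the start, and it is a common motif, present on either strand in the 250 bases before the start of 28.2% of all promoters and 18.8% of the member promoters. Cyp1a1 stood at 39.7, 0.544, 90.7 and 2.66 CPM in SI1 to SI4 and at 1.20, 0.0622, 0.642 and 0.126 CPM in COL1 to COL4. SI1 and SI3 were high, SI2 was below COL1 and COL3, and the ranges overlapped. The log2 fold change was 5.97 ± 1.42 (SE, adjusted p = 0.00864), and limma-voom did not call it (adjusted p = 0.127). It was 4.79 without SI3 and 6.79 without COL1. Its neighbour Cyp1a2 had 0 counts in all 8 libraries, and Cyp1b1 had at most 7. Of the other AhR targets, Tiparp was called higher in SI (log2 fold change 0.94 ± 0.32, adjusted p = 0.0485, ranges overlapping), a call that 7 of 18 alternative fits kept (adjusted p = 0.0629 with mouse as a block), while Ahrr (adjusted p = 0.0542) and Nqo1 (adjusted p = 0.445) did not pass. The receptor Ahr itself did not pass (log2 fold change 0.74 ± 0.46, adjusted p = 0.260), with its highest level, 13.8 CPM, in SI3.

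Cyp2b10, a drug-metabolising enzyme known as the standard target of the receptor CAR, was among the members with the widest gap between the tissues. It was at 1999, 289, 1336 and 1631 CPM in SI1 to SI4 and at 0, 0, 0.294 and 1.80 CPM in COL1 to COL4. No COL library reached the lowest SI library, SI2, and the log2 fold change was 11.16 ± 1.48 (SE, adjusted p = 0.000223), or 13.41 without COL4. The other 4 members of the Cyp2b subfamily, Cyp2b9, Cyp2b13, Cyp2b19 and Cyp2b23, had at most 6 counts in any library. The gene of CAR, Nr1i3, was itself called higher in SI, at 17.1, 9.91, 16.6 and 9.66 CPM against 0, 0.0622, 0.214 and 0.209 CPM (log2 fold change 6.61 ± 0.71, adjusted p = 5.4e-05).

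The Cyp2c subfamily, whose enzymes make epoxides and hydroxy acids from arachidonic acid, went both ways. Of its 15 members 7 were tested, and 4 were called higher in SI, 2 higher in COL and 1 did not pass. Cyp2c55, which hydroxylates arachidonic acid, was at 822, 568, 5318 and 2434 CPM in COL1 to COL4 and at 495, 103, 260 and 737 CPM in SI1 to SI4. COL was higher within each mouse, but the lowest COL library, COL2, was below SI4. The log2 fold change of SI over COL was -2.52 ± 0.80 (SE, adjusted p = 0.0361). This call was lost when SI1, SI2, SI3, COL3 or COL4 was left out (adjusted p 0.0718, 0.0730, 0.10, 0.108 and 0.0597), and without COL3 the value was -1.67. The summed level of the 4 colonocyte markers was 6363, 4486, 31752 and 16857 CPM in COL1 to COL4, in the same order of libraries as Cyp2c55, and their part in the result was not tested.

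Several other Cyp2c genes on chromosome 19 pointed the other way, while Cyp2c69, given below, was called higher in COL as well. Cyp2c29, an epoxygenase, was at 30.1, 1.75, 251 and 51.3 CPM in SI1 to SI4, and in COL it had 3 counts in COL3 and 0 in the other libraries. The gene was called (adjusted p = 0.0004), and the ratio of pooled CPM was 3807-fold with an exact Poisson interval of 1303-fold to 18459-fold, which covers counting error only. Without SI3 the ratio was 1353-fold, and without COL3 it was at least 743-fold against a floor of 3 counts per COL library. SI3 was highest for Cyp2c29, as it was for Cyp1a1, and SI2 was lowest. Cyp2c66 was at 74.2, 24.7, 134 and 121 CPM in SI and 0.704, 0, 1.63 and 2.20 CPM in COL (log2 fold change 6.21 ± 0.88, adjusted p = 0.000339). Cyp2c65 was at 495, 213, 438 and 509 CPM in SI and 69.8, 29.4, 256 and 167 CPM in COL. The SI libraries were higher in 4 of 4 mice, but SI2 was below COL3. The difference did not pass without regard to the mouse (1.66 ± 0.59, adjusted p = 0.0552) and passed with mouse as a block (adjusted p = 0.0112). Cyp2c23, a renal epoxygenase that lies 4998 kb from Cyp2c55, was low but higher in SI, at 7.43, 4.35, 14.1 and 7.42 CPM against 0, 0.124, 1.04 and 0.251 CPM (4.48 ± 0.94, adjusted p = 0.00405, and 5.94 without COL3).

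Cyp2c68 and Cyp2c69 were close relatives with opposite differences. Their coding sequences were 96.5% identical, and the 250 bases before their starts were 92.8% identical. Parts of both promoters are shown beside that of Cyp2c65, because all of them hold the HNF4 motif CAAAGTCCA, given in capitals. The windows run from position -150 to -31 relative to the RefSeq start (GRCm38.p6) at chr19:39060856-39060975 on the plus strand, chr19:39741132-39741251 on the minus strand and chr19:39886800-39886919 on the minus strand, each 5′ to 3′.
Cyp2c65: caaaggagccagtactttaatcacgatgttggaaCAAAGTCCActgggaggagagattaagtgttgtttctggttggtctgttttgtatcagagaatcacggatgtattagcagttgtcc
Cyp2c68: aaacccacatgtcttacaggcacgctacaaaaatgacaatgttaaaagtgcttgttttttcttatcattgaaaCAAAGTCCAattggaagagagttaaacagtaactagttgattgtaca
Cyp2c69: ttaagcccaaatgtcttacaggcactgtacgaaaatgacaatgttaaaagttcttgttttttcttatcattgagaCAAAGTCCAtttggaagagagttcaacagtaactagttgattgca
Of the 69 member promoters in the RefSeq table, 8 (11.6%) held this motif on either strand, those of Cyp2c40, Cyp2c65, Cyp2c67, Cyp2c68, Cyp2c69, Cyp2c70, Cyp3a11 and Cyp3a16, against 0.384% of all promoters. The members holding it share ancestry, and some are near copies of each other. Cyp2c68 was at 165, 118, 167 and 146 CPM in SI1 to SI4 and 4.99, 25.3, 33.2 and 43.7 CPM in COL1 to COL4 (log2 fold change 2.47 ± 0.52, adjusted p = 0.0044). Cyp2c69 was at 0.226, 0.363, 0 and 0.320 CPM in SI and 4.22, 2.73, 8.77 and 7.79 CPM in COL (-4.68 ± 0.78, adjusted p = 0.000972). The ranges of neither gene overlapped between the tissues. Of the stretches of 50 bases in their transcripts, 43.3% of those of Cyp2c68 and 54.8% of those of Cyp2c69 also occurred in another gene, mainly Cyp2c40, so reads could have been exchanged or lost between these genes.

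**Figure D3:**
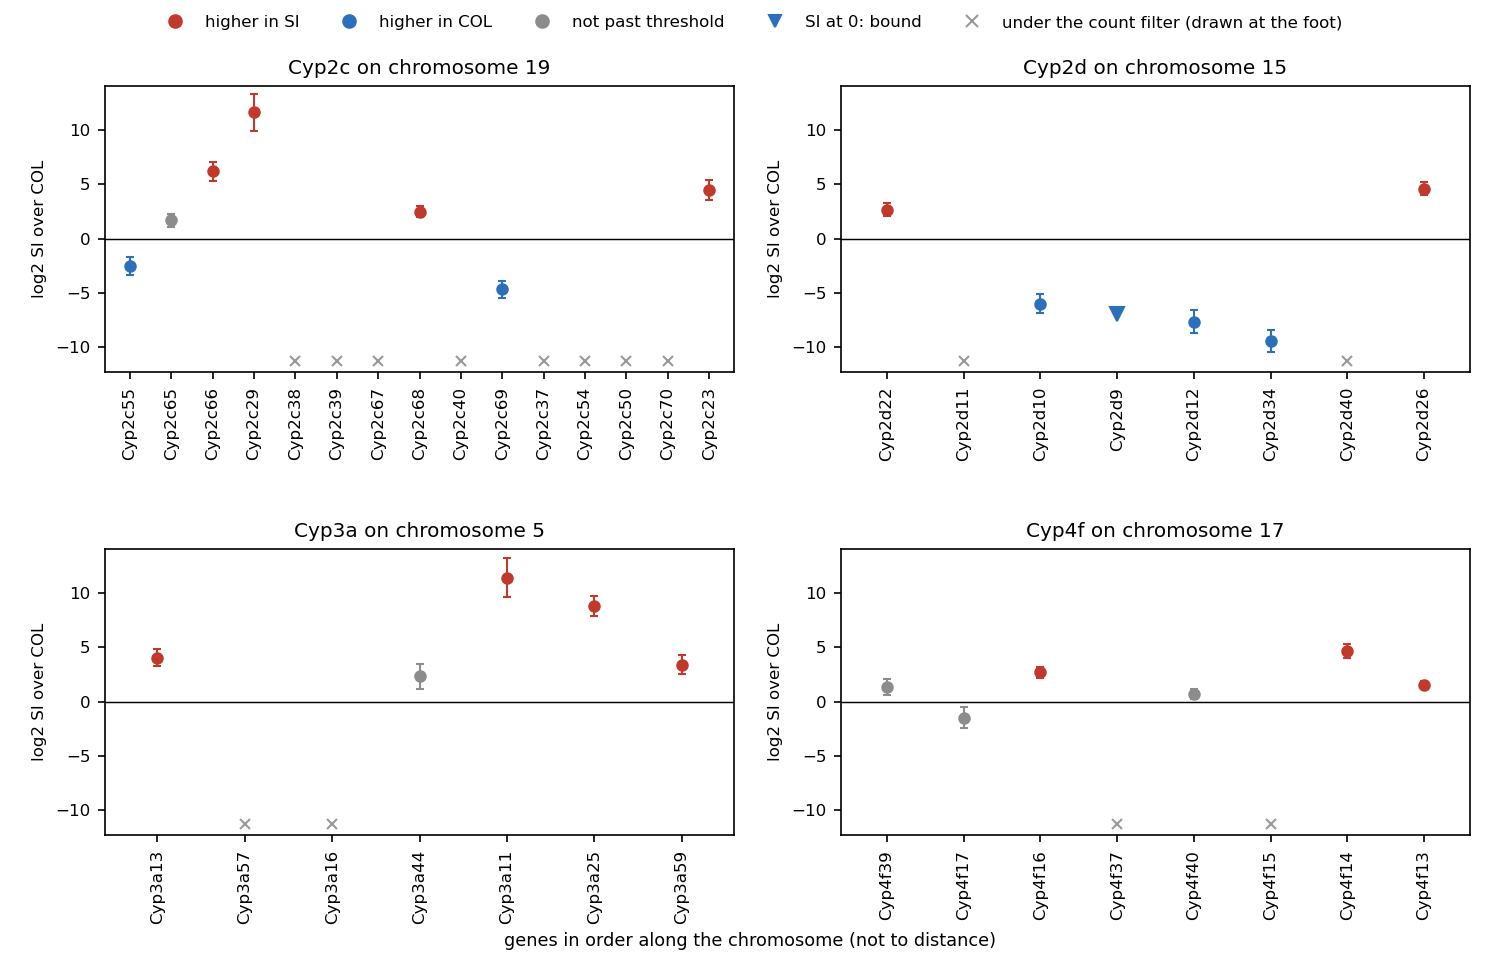
Log2 fold change of SI over COL (± 1 SE) for the members of 4 clusters in their order along the chromosome, not drawn to distance. Red points were called higher in SI, blue points higher in COL and grey points did not pass, the triangle is the bound for Cyp2d9 and crosses at the foot mark members with too few counts and carry no value. Cyp2d9, Cyp2d10, Cyp2d12 and Cyp2d34 sit together below 0 between Cyp2d22 and Cyp2d26, which sit above 0.

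The Cyp2d genes, relatives of human CYP2D6, lie in a row on chromosome 15 (82370527 to 82794294, GRCm38) and divided by position. The outermost genes of the row were higher in SI. Cyp2d22, regarded as the closest mouse counterpart of CYP2D6, was at 219, 57.0, 75.5 and 135 CPM in SI and 7.57, 9.70, 38.8 and 21.3 CPM in COL (log2 fold change 2.65 ± 0.58, adjusted p = 0.00547, and 3.24 without COL3). Cyp2d26 at the other end was at 968, 271, 478 and 624 CPM in SI and 8.63, 13.1, 40.4 and 34.1 CPM in COL (4.6 ± 0.62, adjusted p = 0.000253). The 4 tested genes between them were all higher in COL, and their ranges did not overlap between the tissues. Cyp2d34 was at 27.9, 163, 104 and 51.7 CPM in COL1 to COL4 and 0.453, 0, 0 and 0 CPM in SI1 to SI4 (-9.42 ± 1.04, adjusted p = 6.85e-05). This value rested on 10 counts in SI1, and without that library COL was at least 552-fold higher against a floor of 3 counts per SI library. Cyp2d10 was at 9.77, 33.9, 46.4 and 45.7 CPM in COL and 0.544, 0.302, 0 and 1.24 CPM in SI (-5.98 ± 0.84, adjusted p = 0.00031, and -6.85 without SI4). Cyp2d12 was at 4.61, 28.9, 13.9 and 8.25 CPM in COL and 0, 0.302, 0 and 0 CPM in SI (-7.64 ± 1.07, adjusted p = 0.000295, and -6.99 without COL2). It rested on 5 counts in SI2, and without that library COL was at least 98.2-fold higher against the same floor. COL1 was the lowest COL library for each of these genes.

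Cyp2d9, known in male liver as a testosterone hydroxylase, had 158, 527, 811 and 677 counts in COL1 to COL4 (4.64, 32.8, 21.7 and 14.2 CPM) and 0 counts in all 4 SI libraries. Against a floor of 3 counts per SI library it was at least 121-fold higher in COL (adjusted p = 0.000143). Cyp2d11 had 0 counts in SI and 0, 10, 9 and 8 in COL, and Cyp2d40 had 4 counts in COL3 alone. The 4 members called higher in COL were 88.8% to 92.5% identical to each other in coding sequence and 77.9% to 82.6% identical to Cyp2d22 and Cyp2d26. Stretches of promoter are shown to set a COL pair beside an SI gene of the same row. They run from position -170 to -51 relative to the RefSeq start (GRCm38.p6) at chr15:82452207-82452326 on the plus strand, chr15:82407245-82407364 on the minus strand and chr15:82794296-82794415 on the minus strand, each 5′ to 3′, and capitals mark bases that did not match Cyp2d9 in the alignment.
Cyp2d9: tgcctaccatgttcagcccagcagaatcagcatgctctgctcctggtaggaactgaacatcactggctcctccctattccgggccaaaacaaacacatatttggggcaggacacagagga
Cyp2d10: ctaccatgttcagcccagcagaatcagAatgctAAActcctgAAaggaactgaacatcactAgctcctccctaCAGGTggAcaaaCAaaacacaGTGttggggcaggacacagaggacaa
Cyp2d26: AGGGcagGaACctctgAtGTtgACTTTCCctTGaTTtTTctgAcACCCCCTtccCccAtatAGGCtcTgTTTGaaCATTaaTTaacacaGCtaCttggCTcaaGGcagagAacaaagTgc
Over the 250 bases before the start, Cyp2d9 was 83.6% identical to Cyp2d10 and 56.8% identical to Cyp2d26. The COL genes of the row share 13.7% (Cyp2d34) to 40.5% (Cyp2d10) of their 50-base stretches with other genes, while Cyp2d22 and Cyp2d26 share 6.14% and 10.5%. The main partner was Cyp2d11 for Cyp2d10 (25.9%) and Cyp2d34 (5.40%), Cyp2d9 for Cyp2d12 (11.1%) and Cyp2d12 for Cyp2d9 (10.7%). How reads were divided among these genes is therefore uncertain.

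The remaining members of family 2 were single genes or had few counts. Cyp2u1, a fatty acid hydroxylase, was at 28.4, 59.2, 72.3 and 94.2 CPM in SI and 1.61, 2.86, 3.61 and 2.03 CPM in COL (4.65 ± 0.44, adjusted p = 2.8e-05). Cyp2j6, of an epoxygenase subfamily, was at 197, 48.9, 281 and 105 CPM in SI and 34.2, 33.6, 80.8 and 63.2 CPM in COL (1.58 ± 0.51, adjusted p = 0.0392). SI2 lay inside the COL range, and this call was lost when SI1, SI3, COL1, COL2 or COL4 was left out (adjusted p between 0.0616 and 0.121), as it was with library size scaling (adjusted p = 0.229). Cyp2j9 did not pass (0.88 ± 0.68, adjusted p = 0.368), and the other 6 Cyp2j members had at most 8 counts in a library. Cyp2s1, expressed in epithelia outside the liver, was at 82.9, 85.9, 85 and 91.5 CPM in SI and 41.8, 46.4, 162 and 107 CPM in COL. The SI libraries were close together and lay inside the COL range, and the difference did not pass (-0.05 ± 0.41, adjusted p = 0.943).

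The low members Cyp2f2, Cyp2t4 and Cyp2w1 were called higher in COL. Cyp2f2, the naphthalene-oxidising enzyme of airway club cells, was at 1.11, 4.54, 12 and 11.1 CPM in COL and 0.0906, 0.181, 0.608 and 0 CPM in SI (-5.02 ± 1.02, adjusted p = 0.00331, and -6.32 without SI3). Cyp2w1, known from fetal colon and colon tumours, was at 1.64, 0.622, 3.05 and 1.30 CPM in COL and 0, 0, 0 and 0.366 CPM in SI (-4.06 ± 1.20, adjusted p = 0.0238). The ranges did not overlap for either gene, and the call of Cyp2w1 was lost when SI1, SI3, COL1 or COL3 was left out (adjusted p between 0.0560 and 0.0699). Without SI4, the only SI library with counts, COL was at least 10.6-fold higher against a floor of 3 counts per SI library. Cyp2t4 was below 1 CPM on average in both tissues (-2.99 ± 0.94, adjusted p = 0.0314). Its call was lost with mouse as a block (adjusted p = 0.0546) and when SI1, SI3, SI4, COL1 or COL2 was left out, with -1.99 without COL2. Cyp2e1, the ethanol-oxidising enzyme, was under the filter with 3, 18, 24 and 43 counts in SI and 0 in the COL libraries, and Cyp2r1, a vitamin D 25-hydroxylase, had 1 to 6 counts in SI and 6 to 26 in COL. The Cyp2a genes were nearly silent, with Cyp2a4 at 0 in all libraries and Cyp2a5, Cyp2a12 and Cyp2a22 at no more than 12 counts.

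The Cyp3a subfamily, the main drug- and steroid-oxidising P450s of liver and gut, held 46.1% of the SI pool per kb and 3.42% of the COL pool. Cyp3a11, whose gene on chromosome 5 (145854426 to 145879964, minus strand, GRCm38) is a known PXR target, was at 4869, 497, 2806 and 4340 CPM in SI1 to SI4 and 0, 0, 0.508 and 3.87 CPM in COL1 to COL4. SI2 was well below the other SI libraries yet far above each COL library, and the log2 fold change was 11.41 ± 1.76 (SE, adjusted p = 0.000629), or 13.95 without COL4. Cyp3a25 was at 1606, 768, 1227 and 2174 CPM in SI and 0.499, 1.06, 6.53 and 4.77 CPM in COL (8.79 ± 0.96, adjusted p = 6.26e-05, and 9.39 without COL3). Cyp3a13 was at 3633, 1181, 3002 and 2527 CPM in SI and 27.0, 84.2, 348 and 173 CPM in COL (4.03 ± 0.77, adjusted p = 0.00239, and 4.78 without COL3). Cyp3a13 had the highest mean COL level of the Cyp3a genes. It lies 7452 kb from the nearest other Cyp3a member and was 75.4% to 77.1% identical to the others in coding sequence. Cyp3a59 was low, at 3.58, 1.27, 1.06 and 3.16 CPM in SI and 0.235, 0, 0.428 and 0.147 CPM in COL (3.39 ± 0.86, adjusted p = 0.0117, and 4.00 without COL3), and it was 97.5% identical to Cyp3a25, with 28.0% of its stretches shared. Of the stretches of Cyp3a25, 26.8% also occurred in other genes, mainly Cyp3a59. Cyp3a44 did not pass (2.32 ± 1.14, adjusted p = 0.154), Cyp3a57 reached 10 counts and Cyp3a16 reached 7.

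In family 4, 6 of the 11 tested members were called higher in SI and 0 higher in COL. Cyp4v3, the mouse form of the human fatty acid hydroxylase CYP4V2, was at 2169, 1072, 1141 and 1833 CPM in SI and 3.34, 11.4, 10.6 and 11.7 CPM in COL (7.39 ± 0.61, adjusted p = 1.52e-05). Cyp4f14, which hydroxylates vitamin E and leukotriene B4, was at 2015, 862, 1004 and 1390 CPM in SI and 22.7, 31.1, 124 and 36.8 CPM in COL (4.61 ± 0.65, adjusted p = 0.000323, and 5.46 without COL3). Neither gene overlapped between the tissues, and SI2 was the lowest SI library for both. Cyp4f16 was at 667, 210, 246 and 312 CPM in SI and 24.7, 54.0, 66.0 and 78.1 CPM in COL (2.69 ± 0.48, adjusted p = 0.00163). Cyp4f13, next to Cyp4f14, was at 181, 91.2, 104 and 168 CPM in SI and 29.0, 42.8, 80.0 and 39.8 CPM in COL (1.5 ± 0.37, adjusted p = 0.0109), a call lost with library size scaling (adjusted p = 0.118). Cyp4f40 was at 81.0, 82.3, 61.0 and 97.3 CPM in SI and 21.6, 22.6, 74.0 and 80.6 CPM in COL. Its ranges overlapped and it did not pass (0.69 ± 0.44, adjusted p = 0.270).

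Cyp4b1, which acts on medium-chain fatty acids and some toxins, was at 570, 129, 247 and 514 CPM in SI and 8.01, 2.11, 94.8 and 50.3 CPM in COL (3.23 ± 0.96, adjusted p = 0.0268, and 4.17 without COL3). The ranges did not overlap, but the call was lost when SI1, SI4 or COL1 was left out (adjusted p 0.0594, 0.0520 and 0.0723) and with library size scaling (adjusted p = 0.0584). Cyp4a10, the classical PPAR alpha target among the fatty acid hydroxylases, was at 5.53, 0.846, 9.68 and 11.4 CPM in SI and had 2 counts in all of COL. It was called (adjusted p = 0.000122), and the pooled ratio was 485-fold with an exact Poisson interval of 134-fold to 4006-fold, which covers counting error only. Of the 50-base stretches of Cyp4a10, 30.5% also occurred in other genes, mainly Cyp4a32. The receptor gene Ppara did not pass (0.74 ± 0.47, adjusted p = 0.272). The low members Cyp4f17 (-1.48 ± 0.93), Cyp4f18 (0.39 ± 1.34), Cyp4f39 (1.32 ± 0.72) and Cyp4x1 (-1.76 ± 1.18) did not pass either, with adjusted p between 0.198 and 0.855.

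**Figure D4:**
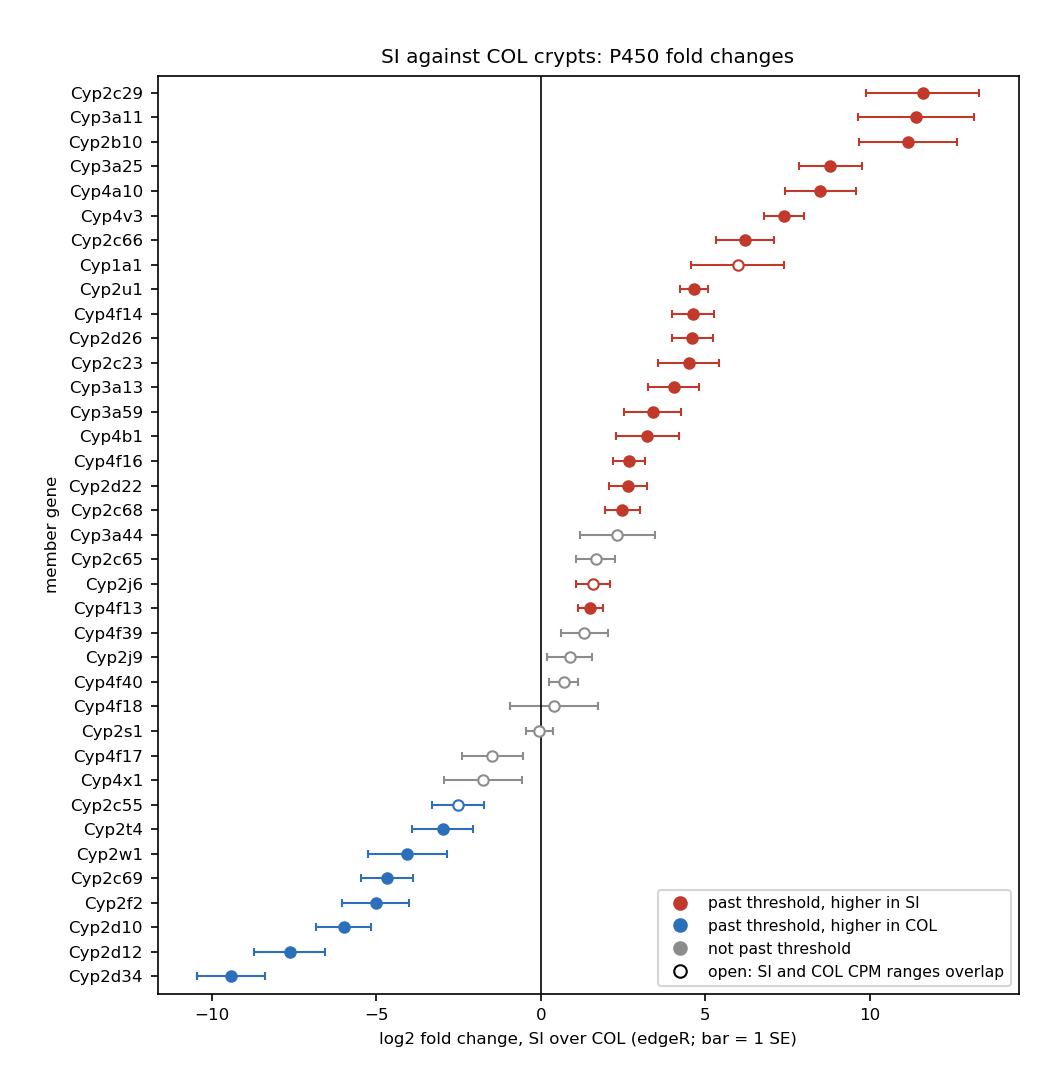
Log2 fold change of SI over COL with 1 SE for 37 of the 38 tested members, Cyp2d9 being left out because it was at 0 in SI. Red and blue mark members called higher in SI and in COL, grey those that did not pass, and open circles those whose CPM ranges overlapped. Cyp2c29, Cyp3a11 and Cyp2b10 have the largest positive values and Cyp2d34 the most negative.

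The members with too few counts for the test were mostly silent. Of the 37, 24 had at most 9 counts in every library, and Cyp1a2 and Cyp2a4 had 0 throughout. The members that reached 10 counts in a library and are not given above were Cyp2c38 (53 counts in SI3), Cyp2c39, Cyp2c50, Cyp2c67, Cyp4a32 (32 in SI3) and Cyp4f15.

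The level of the SI genes followed the library as well as the tissue. SI2 had the lowest CPM of the SI libraries for 18 of the 20 members called higher in SI, against 48.2% of all genes called higher in SI and 25.3% of all genes tested. In COL, 14 of these 20 members were higher in both COL3 and COL4 than in COL1 and COL2, against 50.8% of all genes called higher in SI. The summed villus enterocyte markers were 121769, 51938, 49785 and 85329 CPM in SI1 to SI4 and the summed Paneth markers 596, 4526, 2967 and 1847 CPM, so SI2 had the most Paneth marker RNA and SI1, where the members summed highest, the least. The mitochondrial share was 28.3% in SI2 and 4.84% in SI1. The part of these in the members' levels was not tested. Within the 4 libraries of low mitochondrial share 20 of 38 tested members were called higher in SI and 8 higher in COL. Within the 4 of high share 40 members were tested, and 22 were called higher in SI and 5 higher in COL. The shares of all genes called in these fits are not given here, so the counts cannot be set against them. In SI the split by mitochondrial share, SI1 and SI4 against SI2 and SI3, was also the split by sex label.

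Sex was compared by the labels, which Xist and the Y-linked genes contradicted in each library. The libraries labelled female had the high Y-linked counts and those labelled male the high Xist counts. A direction by label is therefore the reverse of one by these genes. With 2 mice of each sex giving 2 libraries each, p-values over libraries are too small. No member was called by edgeR between the libraries labelled female and those labelled male, where 0.0345% of all genes were called, namely Xist, Kdm5d, Eif2s3y, Uty and Ddx3y. DESeq2 and limma-voom also called 0 members. Unadjusted p was below 0.05 for 3 members, Cyp2d9, Cyp2d12 and Cyp4x1, and for 5.51% of all genes. The SI to COL difference was not called to depend on the sex label for any member by edgeR, DESeq2 or limma-voom. Unadjusted p was below 0.05 for 6 members, Cyp2d10, Cyp2d22, Cyp2d34, Cyp4f13, Cyp4f14 and Cyp4x1, and for 5.25% of all genes. The lowest adjusted p among the members was 0.861 for sex and 0.909 for the interaction.

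Transcripts of the redox partners of the P450s were compared in the same fit. Of 7 genes, 5 were called higher in SI and 0 higher in COL, or 4 and 1 with library size scaling. Among all genes tested in the main fit, 15.5% were called higher in SI and 12.9% higher in COL. The counts of this and the following lists stand beside these shares. Cyb5a, the cytochrome b5 that passes electrons to some P450s, was at 767, 467, 762 and 967 CPM in SI and 61.9, 33.1, 140 and 108 CPM in COL (3.11 ± 0.49, adjusted p = 0.000725). Cyb5b (2.38 ± 0.38), the reductase gene Cyb5r3 (3.07 ± 0.39) and the heme-binding Pgrmc1 (2.5 ± 0.47) and Pgrmc2 (1.47 ± 0.32) were also higher in SI, with adjusted p between 0.00017 and 0.0049. Por, the oxidoreductase that all microsomal P450s need, was at 348, 146, 357 and 424 CPM in SI and 72.1, 62.2, 244 and 185 CPM in COL. SI was higher in each mouse, SI2 lay inside the COL range, and the difference did not pass (1.18 ± 0.50, adjusted p = 0.10), although it passed in 6 of 18 alternative fits, with mouse as a block among them (adjusted p = 0.0326). Cyb5r1 was lower in SI, at 2.17, 7.01, 5.27 and 7.78 CPM against 12.1, 9.07, 8.24 and 10.9 CPM, with ranges that did not overlap. It did not pass (-0.86 ± 0.40, adjusted p = 0.128) but was called higher in COL with library size scaling (-1.61, adjusted p = 0.0139). Of the epoxide hydrolases, which open the epoxides that P450s make, Ephx2 was higher in SI, at 3154, 1045, 1745 and 1971 CPM against 24.3, 17.5, 65.5 and 43.2 CPM (5.72 ± 0.62, adjusted p = 6.34e-05), and Ephx1 did not pass (0.25 ± 0.84, adjusted p = 0.856).

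Of 12 genes of heme synthesis and breakdown, Ppox (0.91 ± 0.24, adjusted p = 0.0147) and Hmox2 (1.21 ± 0.40, adjusted p = 0.0421) were called higher in SI, and Hmox1, the inducible heme oxygenase, was called higher in COL (-4.10 ± 1.01, adjusted p = 0.0105). The other 9 did not pass. Alas1 was higher in SI with ranges that did not overlap (1.24 ± 0.45, adjusted p = 0.0599). It passed in 8 of 18 alternative fits, with mouse as a block among them (adjusted p = 0.0392). Alad (1.00 ± 0.37, adjusted p = 0.0639) passed in 6 of 18, with mouse as a block among them (adjusted p = 0.0485). Uros, lower in SI with overlapping ranges (-0.66 ± 0.27, adjusted p = 0.0902), also passed in 6 of 18. Of 13 ligand-activated regulators, 5 were called higher in SI and 2 higher in COL. Besides Nr1i3, Rxra, the partner of CAR, PXR and the PPARs, was higher in SI (1.18 ± 0.24, adjusted p = 0.00343), as were Nr1h3 (3.03 ± 0.38, adjusted p = 0.000148), Nr3c1 (1.30 ± 0.25, adjusted p = 0.00251) and Arnt (0.71 ± 0.23, adjusted p = 0.0403), whose call 5 of 18 alternative fits kept (adjusted p = 0.0668 with mouse as a block). Pparg (-1.93 ± 0.43, adjusted p = 0.00569) and the bile acid receptor gene Nr1h4 (-1.22 ± 0.32, adjusted p = 0.0148) were higher in COL. Nr1i2, which encodes PXR, was at 42.8, 66.5, 45.0 and 69.1 CPM in SI and 19.3, 45.2, 29.9 and 28.9 CPM in COL. It did not pass (0.86 ± 0.31, adjusted p = 0.0562), although it passed in 6 of 18 alternative fits, with mouse as a block among them (adjusted p = 0.0344).

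**Figure D5:**
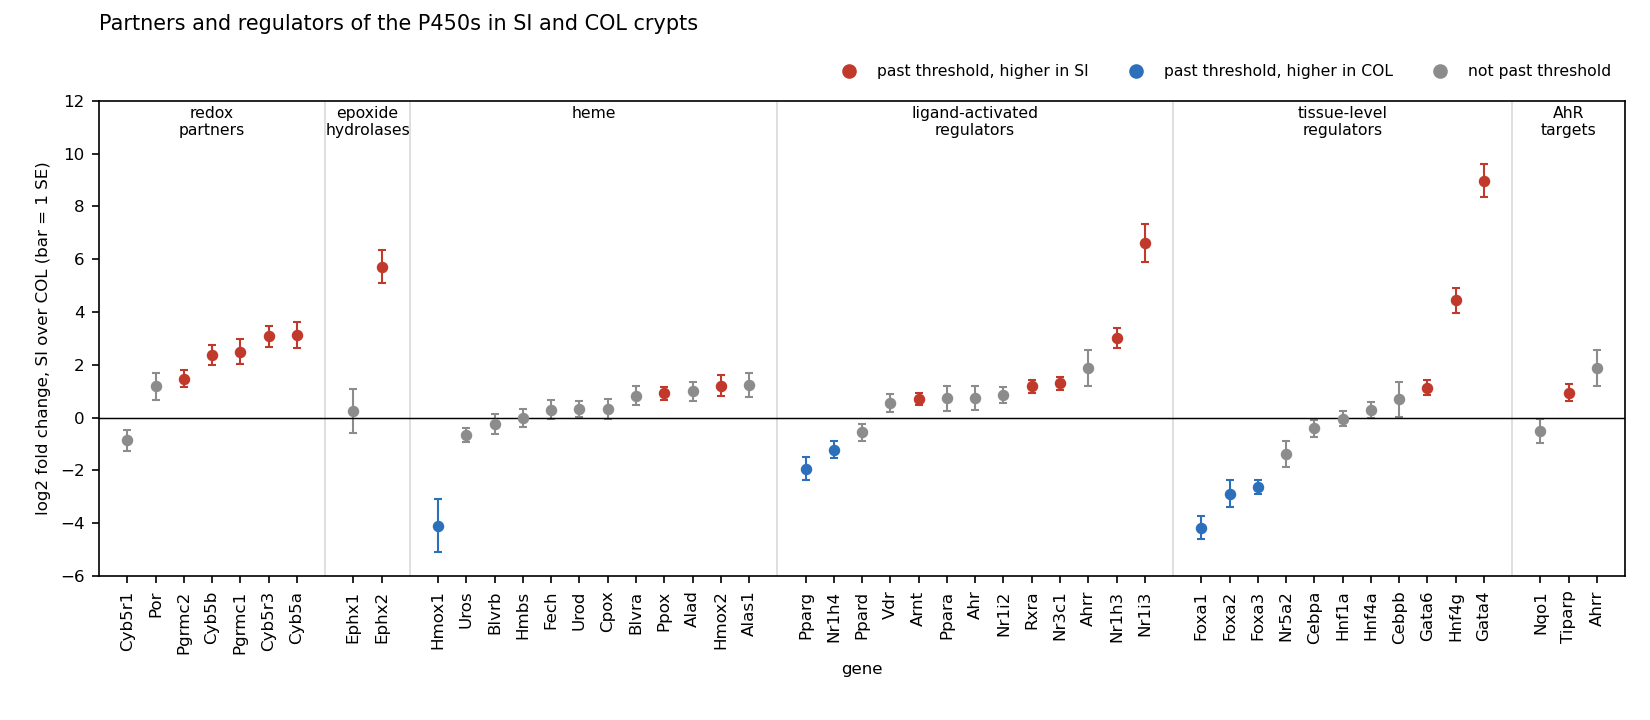
Log2 fold change of SI over COL (± 1 SE) for the tested redox partners, epoxide hydrolases, heme enzymes, regulators and AhR targets outside the P450s. Red was called higher in SI, blue higher in COL and grey did not pass. Gata4, Nr1i3, Ephx2 and Hnf4g have the highest values and Foxa1 and Hmox1 the lowest.

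Among 11 regulators that set gene activity along the gut or in liver, 3 were called higher in SI and 3 higher in COL. Gata4 was at 52.9, 51.1, 49.4 and 48.3 CPM in SI and 0.0293, 0.186, 0 and 0.188 CPM in COL (8.98 ± 0.64, adjusted p = 8.57e-06). Hnf4g was at 899, 475, 622 and 716 CPM in SI and 21.2, 56.7, 28.6 and 18.5 CPM in COL (4.44 ± 0.47, adjusted p = 5.64e-05), and Gata6 was also higher in SI (1.14 ± 0.29, adjusted p = 0.0126). Foxa1 (-4.17 ± 0.43), Foxa2 (-2.88 ± 0.50) and Foxa3 (-2.64 ± 0.26) were higher in COL, with adjusted p between 3.67e-05 and 0.00135. Hnf4a, the other HNF4 gene of the list beside Hnf4g, was at 348 to 424 CPM in SI and 221 to 383 CPM in COL and did not pass (0.29 ± 0.31, adjusted p = 0.521). Whether any HNF4 protein binds the motif printed above was not tested. Nr5a2 did not pass (-1.39 ± 0.49, adjusted p = 0.0528) but did in 10 of 18 alternative fits, with mouse as a block among them (adjusted p = 0.0222). Counted together and each gene once, 47 partners and regulators were tested, and 17 were called for SI and 6 for COL. Among all genes tested 15.5% were called higher in SI and 12.9% higher in COL, and the COL count was near that share. Scaled by library size alone the split was 9 and 11, while that of the members was 17 and 9. The shares of all genes called with that scaling are not given here, so these counts cannot be set against them. With that scaling Pgrmc2 (log2 fold change 0.68), Ppox (0.17), Hmox2 (0.41), Rxra (0.45), Nr3c1 (0.58), Gata6 (0.44) and Tiparp (0.23) no longer passed, and Arnt changed sign (-0.04).

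The P450s of the other families were compared for contrast. Of 19 such genes only 4 had enough counts for the test, against 38 of the 75 members. The bile acid enzyme Cyp27a1 was higher in SI (2.89 ± 0.39, adjusted p = 0.000246), and Cyp51 of sterol synthesis (-1.93 ± 0.32, adjusted p = 0.000887) and Cyp20a1 (-2.19 ± 0.46, adjusted p = 0.00438) were higher in COL. Cyp39a1 did not pass (-1.60 ± 0.57, adjusted p = 0.0553) but did in 10 of 18 alternative fits, among them DESeq2, limma-voom, library size scaling and mouse as a block (adjusted p = 0.0393).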

How the data were processed

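The deposited tables held counts of paired-end reads per Ensembl gene, made by the authors from reads trimmed with Trimmomatic 0.36 and aligned and counted on mm10 with STAR 2.5.2b. The submitters' notes name mm9 as well. The gene annotation and the use of strand are not given in the sources used here. Reads shared between near copies may have been lost or split at that step.

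The 2 tables were joined by gene identifier, and symbols, positions and lengths were taken from GENCODE vM21 (GRCm38), which lacked 563 of 45706 identifiers. Tissue groups came from the sample titles. The gene members and lists were chosen with earlier results of these data known. Genes were kept by edgeR's filterByExpr (minimum count 10, minimum total 15), scaled by TMM (factors 0.727 to 0.798 in SI and 1.01 to 1.45 in COL) and tested with edgeR 4.0.16's quasi-likelihood F test in R 4.3.3, with Benjamini-Hochberg adjustment over 14491 genes. CPM is the count per 1000000 counts of the TMM-scaled sum of kept genes. Values are means ± SD over libraries, or log2 fold changes of SI over COL ± SE. The samples came from 4 separate mice, and the main fit took the 8 libraries as separate, without the mouse. Its p-values measure the spread between libraries within a tissue, in which differences between animals and between library preparations cannot be told apart.

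All members tested are named. Values in every library are given for members averaging 20 CPM or more in a tissue and for called members averaging 1 CPM or more. For lists, called genes are named, 1 gene is not reported here, and further genes are given where a result turned on them. The genes named among those labelled by sex were chosen after their values were seen. Each mouse gave both tissues, so a fit with the mouse as a block was also made. Deviations from the tissue means correlated at -0.24, 0.39, -0.08 and 0.33 between the 2 libraries of mice 1, 2, 3 and 5.

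Other alternatives were DESeq2 1.42.0, limma-voom 3.58.1, library size scaling, other filters, leaving out 1 library, the mitochondrial share as a covariate or stratum and leaving out members sharing over 10% of their 50-base stretches. The fits were also run on simulated data with the same dispersion for every gene and no difference between mice. Changes were put only into genes with higher counts, so that run says nothing about members nearly absent from a tissue. Promoter sequences are from RefSeq (GRCm38.p6), which held 62 of the 75 members. Further genes named like members but with a letter suffix, and pseudogenes, 21 in all, were left out by the rule.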

Additional observations from a re-analysis of the deposited data

Results flagged for a closer look

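Among 75 groups of 4 libraries (38 members in 2 tissues, leaving out Cyp2d9 in SI), 5 held a library far from the others by Dixon's ratio (gap to the nearest library over the whole range) on the scale of log2(CPM + 0.1). Chance alone marks about 1 in 20 groups. In COL, Cyp4v3 was low in COL1, at 3.34 CPM against 10.6 to 11.7 CPM in the others (ratio 0.921). The other groups had a ratio of 1 because 1 library had a few counts and the others none. These were Cyp2c29 in COL3 (0.0802 CPM), Cyp2d12 in SI2 (0.302 CPM), Cyp2d34 in SI1 (0.453 CPM) and Cyp2w1 in SI4 (0.366 CPM).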

How the results depend on the processing

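Of the 29 called members, 24 passed in every fit that left out 1 library, with 19 to 22 members higher in SI and 6 to 8 higher in COL. Cyp2c55, Cyp2j6, Cyp2t4, Cyp2w1 and Cyp4b1 did not. Leaving out 1 library moved the fold by over 1.5 times for 18 of the 29, as given beside each in the report. The block by mouse called 29 members, 28 of them shared with the fit without it, and beside the results named in the report it changed no other member's call. Cyp2c65 passed in DESeq2 (adjusted p = 0.0122) and limma-voom (adjusted p = 0.0231), and limma-voom did not call Cyp1a1, Cyp2j6 and Cyp2t4. Requiring 10 counts in every library removed members that were near 0 in a tissue. It left 16 tested members, 12 of them called higher in SI and 1 higher in COL. Leaving out members with over 10% shared stretches left 10 and 3. In the libraries of high mitochondrial share 5 members were higher in COL. Without a filter, 1 member (Cyp3a11) was called higher in the libraries labelled female and 1 (Cyp2d34) for the sex by tissue interaction. With library size alone the log2 median over all genes moved from -0.09 to -0.82, the partners and regulators gave 9 and 11, and summed log2 ratios were -0.82 for Cyp2s, 3.96 for Cyp2u, 2.41 for Cyp4f and 6.67 for Cyp4v. Partners and regulators higher in COL numbered 11 at low and 3 at high mitochondrial share, and 14 to 18 (SI) and 5 to 7 (COL) without 1 library. Of the other P450 families, 2 were higher in SI without a filter and at low mitochondrial share, 1 to 2 without 1 library, and 1 was higher in COL at high share, while DESeq2, limma-voom, the block, library size alone and both other filters gave 3 in COL. Without COL3 or COL4 the summed ratio of Cyp2s changed sign, with a range of -0.28 to 0.41 over the 8 omissions, and for Cyp2w no ratio could be formed without SI4. Directions changed only for members that had not passed. Cyp2s1 was at 0.23 in limma-voom, 0.26 and 0.19 with the block in limma-voom and edgeR, 0.89 at high mitochondrial share and -0.28 to 0.41 without 1 library. Cyp4f18 was at -0.45 with library size alone, -0.22 in limma-voom, -0.44 at low mitochondrial share and -0.26 to 1.15 without 1 library. Cyp2j9 was at -0.54 at low mitochondrial share and Cyp4f40 at -0.10 with library size alone. The cause of these changes was not tested. At these depths members at 0 in a tissue are limited to about 3 counts per library.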
